A study of Saccharomyces cerevisiae with 15 samples.

Results

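GCN4 (YEL009C) and 44 genes of amino acid synthesis were followed in young and old budding yeast (Saccharomyces cerevisiae), as mRNA and as ribosome footprints, which are the mRNA fragments that ribosomes protect from nuclease. The 45 genes were given as a list of identifiers, out of 7127 identifiers in each count file. They comprised GCN4, 7 arginine, 5 histidine, 5 lysine, 9 branched-chain, 8 aromatic, 5 threonine, 3 serine and 2 asparagine genes, and all 45 matched the RefSeq annotation of build R64. The iron-sulfur enzymes of these pathways were kept apart as a separate list.

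Gcn4 is the transcription activator of the general amino acid control. It binds promoters of amino acid synthesis genes at sites around the letters TGACTC. Its own synthesis is held back by short upstream reading frames in the mRNA leader, and when amino acids run short, the kinase Gcn2 phosphorylates initiation factor eIF2, fewer upstream frames are translated and ribosomes reach the GCN4 start codon more often. Arginine, lysine, leucine and serine synthesis also have controls of their own.

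Wild type was the Mother Enrichment Program strain UCC8773, in which estradiol switches on a recombinase that stops daughter cells, but not their mothers, from dividing. The other strain was its derivative cth2Δ, which lacks CTH2 (listed as TIS11), an RNA-binding protein made when iron is low. Both strains were precultured in YPD, a rich medium, with nourseothricin and hygromycin B. They were labelled with biotin and grown in YPD with 17β-estradiol, for 2 h to give young cells or 30 h to give old mothers, and all cells were recovered on magnetic beads. For the young cells the labels state the same conditions. RNA-seq and ribosome profiling were run on aliquots of 1 lysate, made with cycloheximide. Each of the 8 groups of strain, age and assay held 2 libraries, except RNA-seq of old cth2Δ cells, which had 1. The labels do not say whether the libraries of a group came from separate cultures, so p-values measure the spread between these libraries only. Counts are shares of a library, and fewer cells of a kind and less RNA per cell cannot be told apart.

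Library totals were 1629345 to 6198680 counts, and 3 counts corresponded to 0.484 to 1.84 CPM (a count relative to its library's total), a floor that covers counting error only. The deleted gene had 28 to 60 counts in young and 288 to 516 in old wild-type libraries, against at most 17 in any deletion library. CPM were scaled by trimmed means of M values (TMM), which sets most genes level between libraries. Scaling by plain totals would add 0.31 to the log2 age change of every gene in wild-type mRNA, 0.34 in wild-type footprints and 0.46 in deletion footprints. It would turn the direction of 10, 14 and 11 of the 45 genes in these comparisons, and of 0 called ones. Changes are therefore relative to the middle of all genes. The young libraries of a group differed more than the old ones. The SD over the 45 genes of the log2 difference between replicates was 0.37 to 0.41 in the 4 young groups and 0.13 to 0.18 in the 3 old groups with 2 libraries. Young replicate differences ran in opposite directions in the 2 strains for 39 of 45 genes in footprints and 35 of 45 in mRNA. The part of this split in the results below was not tested.

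The sequences below show the letters that Gcn4 is known to bind, in promoters of arginine genes and LEU4 and of genes that fell in old cells. Each is a stretch of 27 bases from RefSeq build R64, written 5′ to 3′ with the match to TGANTCA, found on either strand, in capitals. The first 5 belong to arginine genes and the sixth to LEU4; the last 4 belong to genes whose footprints fell with age in the deletion.
ARG1: gattttttagTGACTCAtgtcgcattt
ARG3: ggtcacgtcgTGACTCAtatgctttct
ARG4: agtagatgaaTGACTCActttttggat
ARG56: cttatccgaaTGACTCAgtctacatca
ARG8: gctcgctatgTGACTCActtaaagtac
LEU4: tacgtgtaagTGACTCAgttctttcaa
HIS4: ccatgcacagTGACTCAcgttttttta
ASN2: ttcttagcatTGACTCAtggcaagatt
ARO1: gtcatgcataTGACTCAtcccgaacat
ARO4: tactgcgaaaTGACTCAacgatgaaat

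The ARG1 stretch lies at chrXV:218856-218882 on the plus strand, and its capitals begin 345 bases before the start codon. The ARG3 stretch lies at chrX:268475-268501 on the plus strand, and its capitals begin 314 bases before the start codon. The HIS4 stretch lies at chrIII:68516-68542 on the minus strand, and its capitals begin 199 bases before the start codon. All lie upstream of the coding sequence. Within 400 bases before the start codon, TGANTCA was found on either strand in 554 of 6002 genes (9.23%) and in 26 of the 45 genes (57.8%). The shorter TGACTC, which overlaps it, was found in 620 genes (10.3%) and in 33 of the 45 (73.3%). By pathway, TGACTC was in the window of 7 of 7 arginine genes, 5 of 5 histidine, 2 of 5 lysine, 6 of 9 branched-chain, 5 of 8 aromatic, 4 of 5 threonine, 2 of 3 serine and 2 of 2 asparagine genes. CPA1, HIS3, LYS12, ILV1, THR1, THR4, SER1 and SER33 had TGACTC without TGANTCA, and ILV2 had TGANTCA without TGACTC. GCN4, SER3, LYS9, LYS20, LYS21, LEU2, BAT2, TRP5, ARO2, ARO3 and HOM6 held neither in this window. A match is a run of letters and not evidence of binding. In deletion footprints, TGANTCA stood before 5 of the 7 listed genes that rose with age and before 4 of the 6 that fell.

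GCN4 mRNA was abundant in all libraries, and its footprints were few. GCN4 (chromosome V, 138918 to 139763) was the highest of the 45 genes per length in all 7 RNA-seq libraries, at 1664 to 2212 CPM per kb, and ranked 84 to 168 of 6050 genes. In footprints it ranked 604 to 1068 of 6050 per length. The 600 bases of R64 sequence before the GCN4 start codon were searched for ATG codons with a later stop in frame. This search gave 4 short upstream reading frames of 2 or 3 codons, beginning 361, 293, 176 and 151 bases before the start codon. GCN4 mRNA was 1448 and 1517 CPM in young and 1820 and 1584 CPM in old wild-type libraries. It was 1703 and 1408 CPM in young deletion libraries and 1871 CPM in the single old one. Both old wild-type values lay above both young ones, by a log2 fold change of 0.20 (SE 0.22), which did not pass edgeR's quasi-likelihood test (Benjamini-Hochberg adjusted p = 0.624). GCN4 footprints were 168 and 176 CPM in young and 142 and 114 CPM in old wild-type libraries. They were 262 and 216 CPM in young and 129 and 101 CPM in old deletion libraries. Footprints were lower in old cells of both strains, with no overlap, and highest in young deletion cells. The fall passed the test in the deletion, at −1.06 (SE 0.20; edgeR adjusted p = 0.0181), and not in wild type, at −0.43 (SE 0.19; edgeR adjusted p = 0.237). The difference between these 2 age changes was −0.63 (SE 0.27) and did not pass (edgeR adjusted p = 1.00).

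The ratio of GCN4 footprints to GCN4 mRNA was 0.116 in both young wild-type lysates, 0.0780 and 0.0719 in the old ones, 0.154 in both young deletion lysates and 0.0688 in the old deletion lysate with RNA-seq. The replicates lay closer together in this ratio than in either level. Among genes with at least 10 CPM of mRNA, between 1.15% and 5.49% had a lower ratio than GCN4, depending on the lysate, so that GCN4 was among the least translated mRNAs throughout. With age in wild type the ratio changed by −0.61 on the log2 scale (SE 0.27), with an edgeR adjusted p of 0.727. With the lysate as a block, which the shared lysates of the 2 assays permit, the SE was 0.16 and the fall passed (edgeR adjusted p = 0.0106; the range over all settings tried was 0.0106 to 1.00). In young cells the ratio was higher in the deletion than in wild type by 0.38 (SE 0.27), which passed neither without (edgeR adjusted p = 1.00) nor with the block (edgeR adjusted p = 0.689).

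**Figure D1:**
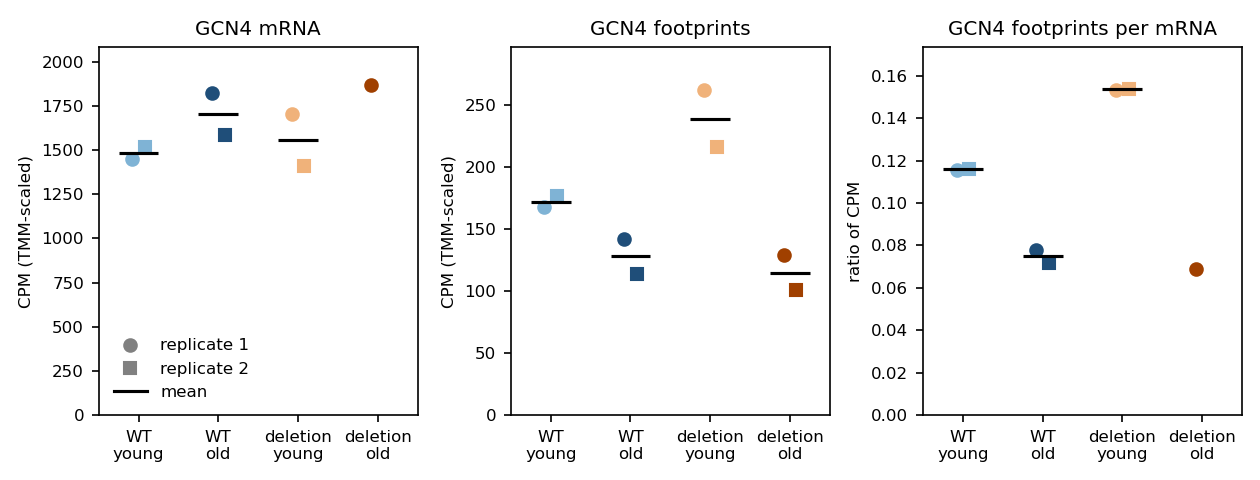
GCN4 mRNA (left), footprints (middle), both in TMM-scaled CPM, and the ratio of both (right) in each library, by strain and age; circles are replicate 1, squares replicate 2 and bars group means. mRNA lies between 1408 and 1871 CPM, footprints between 101 and 262 CPM, and the ratio is lowest in old cells of both strains.

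With age, few of the 45 genes were called by edgeR, and calls went in both directions only in deletion footprints. The middle of the 45 genes was near that of all genes in footprints and above it in wild-type mRNA. In wild-type mRNA, 2 of 45 rose, CPA1 and SER3 (0.868% of all tested genes rose), and 0 fell (0.0835% of all). At an unadjusted p under 0.05 in edgeR, 12 were higher (10.3% of all) and 5 lower (9.6%), and DESeq2 called 5 higher, ARG3, ASN1 and BAT2 besides these. In wild-type footprints, 5 of 45 rose, among them CPA1, ARG3, ARG56 and SER3 (2.02% of all tested genes), and 0 fell (0.961%), with 9 higher (12.5% of all) and 5 lower (10.5%) at an unadjusted p under 0.05 in edgeR and 3 called lower by DESeq2 (ARO4, ASN2 and HIS4). In deletion footprints, 7 of 45 rose (9.16% of all) and 6 fell (8.06%). The 7 were the same 5 with ARG1 and LEU4, and those that fell were GCN4, HIS4, ASN2, ARO1, ARO4 and SER33. At an unadjusted p under 0.05 in edgeR, 12 were higher (18.3% of all) and 13 lower (18.2%).

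The median log2 age change of the 45 genes was 0.19 in wild-type mRNA, where that of all genes was −0.00, −0.02 in wild-type footprints (0.01 for all) and 0.01 in deletion footprints (−0.00 for all). In wild-type mRNA both old libraries lay above both young ones for 24 of the 45 genes (30.1% of all tested genes) and below for 8 (27.8%). In wild-type footprints they lay above for 18 (30.7%) and below for 12 (27.3%). The calls changed when single libraries were left out. Each such fit left a group with 1 library, so a lost call cannot be told apart from lost power. In wild-type mRNA the log2 changes of the called genes ranged from 1.82 to 2.04 (CPA1) and from 1.30 to 1.57 (SER3). The wild-type mRNA calls fell to 0 without any 1 of the 4 wild-type libraries. The wild-type footprint calls fell to 1 without young replicate 1, to 2 without young replicate 2 and to 0 without either old library. The deletion calls fell to 8 without young replicate 2 and to 0 without either old library.

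**Figure D2:**
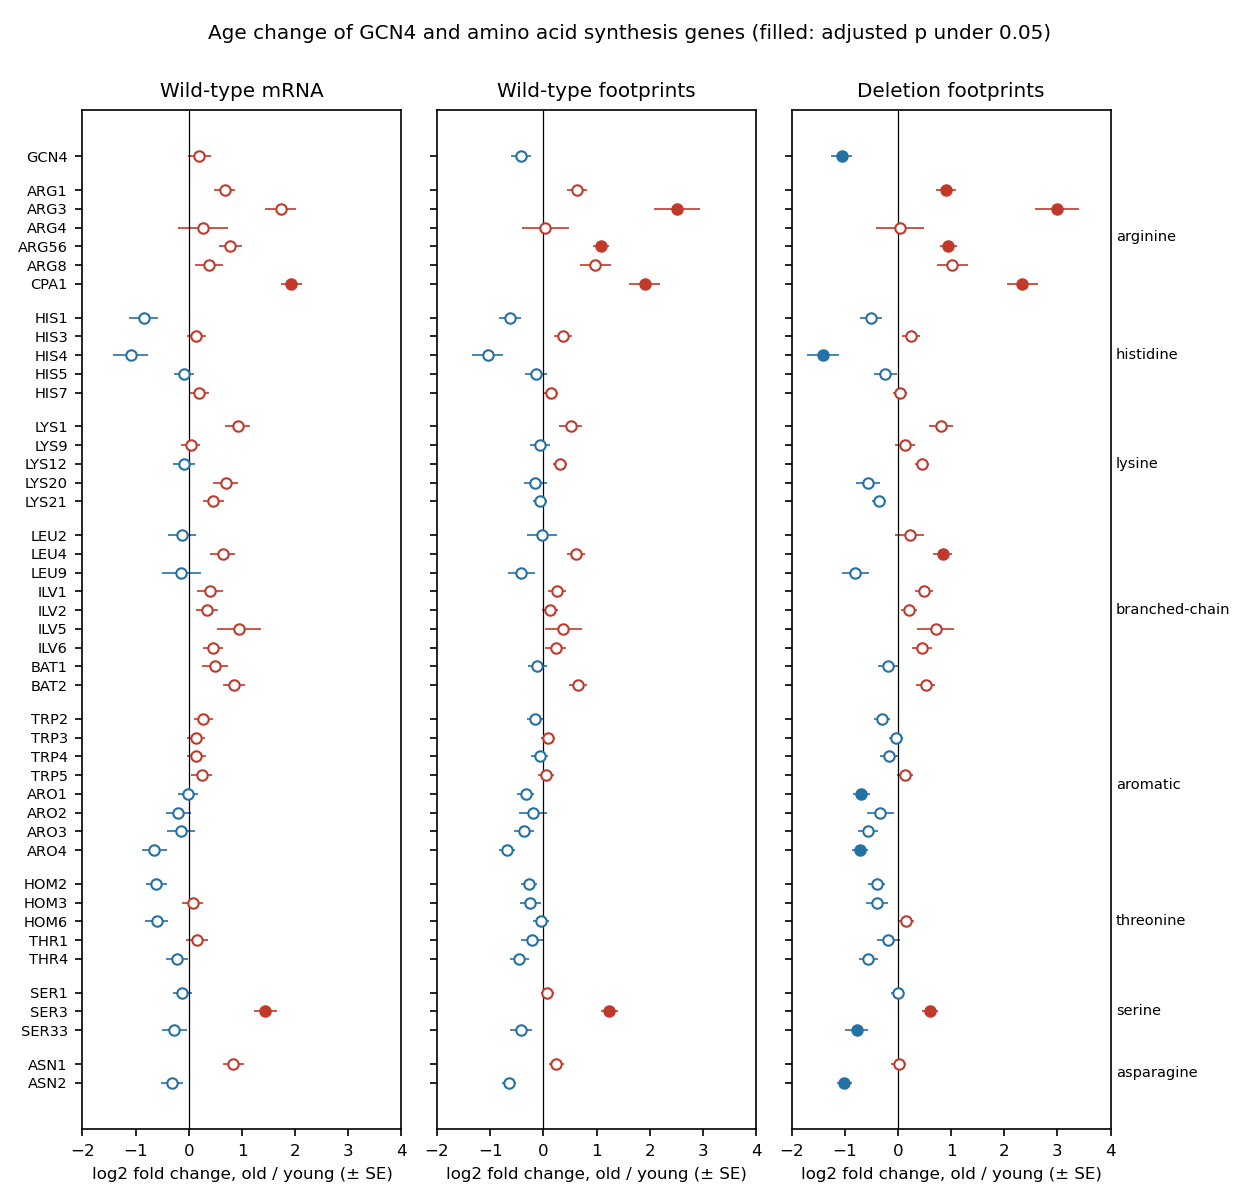
Log2 fold change of old over young cells with its SE (x axis) for GCN4 and synthesis genes by pathway (y axis), in wild-type mRNA, wild-type footprints and deletion footprints; red is higher, blue lower, and filled points had an adjusted p under 0.05. The arginine genes shown lie right of 0 in each panel, and ASN2, ARO4, HIS4 and SER33 lie left of 0 in each.

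The arginine genes were the pathway with the most calls. All 7 were higher in old cells in each of the 3 tested age comparisons, also with plain totals. Their median log2 change was 0.78 in wild-type mRNA, 0.98 in wild-type footprints and 0.95 in deletion footprints. The lowest footprint change was that of ARG4, at 0.04 in both strains, where the ages overlapped. Of the 7, 1 rose in wild-type mRNA (0.868% of all tested genes), 4 in wild-type footprints (2.02%) and 5 in deletion footprints (9.16%). In these comparisons 0 of the 7 fell, where 0.0835%, 0.961% and 8.06% of all genes did. CPA1 (YOR303W) encodes a subunit of the carbamoyl phosphate synthetase that serves arginine synthesis. CPA1 mRNA was 73.2 and 70.1 CPM in young and 252 and 293 CPM in old wild-type libraries. It was 69.0 and 82.6 CPM in young deletion libraries and 401 CPM in the old one. CPA1 footprints were 20.0 and 34.0 CPM in young and 97.9 and 105 CPM in old wild-type libraries, and 29.7 and 19.4 CPM in young and 116 and 129 CPM in old deletion libraries. Young and old values were far apart in both assays and both strains. CPA1 rose by 1.93 in wild-type mRNA (SE 0.20; edgeR adjusted p = 0.0120), by 1.91 in wild-type footprints (SE 0.29; edgeR adjusted p = 0.0221) and by 2.34 in deletion footprints (SE 0.30; edgeR adjusted p = 0.00674). CPA1 mRNA carries an upstream reading frame whose peptide stalls ribosomes when arginine is plentiful.

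ARG3 (YJL088W), ornithine carbamoyltransferase, was the scarcest of the 45 genes per length in 12 of 15 libraries, with as few as 4 counts in a library. Its footprints were 1.13 and 2.79 CPM in young and 13.9 and 8.83 CPM in old wild-type libraries, and 2.48 and 2.47 CPM against 22.1 and 18.2 CPM in the deletion. The rise was 2.52 in wild type (SE 0.43; edgeR adjusted p = 0.0344) and 3.0 in the deletion (SE 0.41; edgeR adjusted p = 0.00897). ARG3 mRNA was 5.97 and 6.85 CPM in young and 20.8 and 22.2 CPM in old wild-type libraries, and did not pass the test. ARG56 (YER069W), listed for the mitochondrial acetylglutamate kinase and reductase made as 1 precursor, had footprints of 29.6 and 29.8 CPM in young and 64.3 and 61.8 CPM in old wild-type libraries, and 37.8 and 45.6 CPM against 86.2 and 75.5 CPM in the deletion. It rose by 1.08 in wild-type (SE 0.16; edgeR adjusted p = 0.0186) and 0.95 in deletion footprints (SE 0.16; edgeR adjusted p = 0.0135).

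ARG1 (YOL058W), argininosuccinate synthetase, had footprints of 49.7 and 62.7 CPM in young and 82.3 and 91.7 CPM in old wild-type libraries, and 69.3 and 57.8 CPM against 127 and 111 CPM in the deletion. Its rise passed in the deletion, at 0.90 (SE 0.18; edgeR adjusted p = 0.0230), and not in wild type, at 0.63 (SE 0.18; edgeR adjusted p = 0.113). ARG8 (YOL140W), acetylornithine aminotransferase, had 8.75 and 5.57 CPM of footprints in young and 16.0 and 12.2 CPM in old wild-type libraries, with no call in either strain. ARG4 (YHR018C), argininosuccinate lyase and the last enzyme of the pathway, stood apart from the other 6. Its footprints were 431 and 191 CPM in young and 355 and 282 CPM in old wild-type libraries, and 177 and 357 CPM against 307 and 243 CPM in the deletion. The ages overlapped, and the young libraries bracketed the old ones in both strains. In mRNA, ARG4 was 412 and 171 CPM in young wild-type libraries and 207 and 381 CPM in young deletion libraries, the same split with the replicate numbers reversed. Leaving out 1 library moved the wild-type footprint change of ARG4 from 0.04 to as low as −0.44, without young replicate 2, and as high as 0.74.

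The single old deletion RNA-seq library allows no test. Set against the 2 young deletion libraries, 9 of the 45 genes were higher by at least 1 on the log2 scale, where 8.20% of all genes were. Among them were ARG1 (1.41), ARG3 (2.30), ARG56 (1.24), CPA1 (2.37), LYS1 (1.23), ILV5 (1.29), SER3 (1.13) and ASN1 (1.11). HIS1 (−1.28) and HIS4 (−1.04) were lower by as much, where 5.29% of all genes were.

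**Figure D3:**
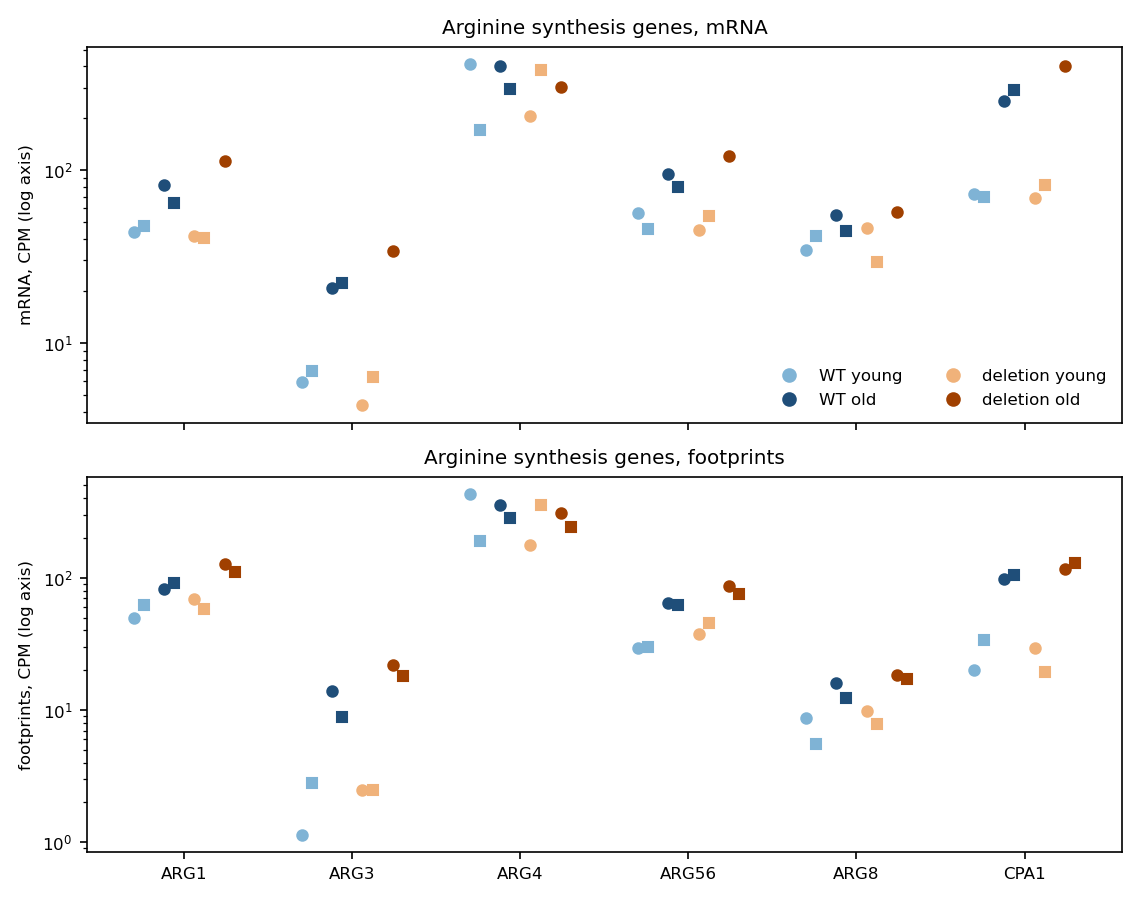
CPM of arginine genes in each library, mRNA above and footprints below, on log axes, coloured by strain and age, with circles for replicate 1 and squares for replicate 2. Old libraries lie above young ones of the same strain for ARG1, ARG3, ARG56, ARG8 and CPA1 in both assays, while ARG4 overlaps.

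Serine synthesis split between its paralogues. SER3 (YER081W) and SER33 (YIL074C) both encode 3-phosphoglycerate dehydrogenase, the first enzyme of the pathway. SER3 mRNA was 175 and 207 CPM in young and 471 and 566 CPM in old wild-type libraries, and 174 and 213 CPM against 426 CPM in the deletion. It rose by 1.44 in wild-type mRNA (SE 0.22; edgeR adjusted p = 0.0431). SER3 footprints were 354 and 378 CPM in young and 794 and 939 CPM in old wild-type libraries, a rise of 1.24 (SE 0.15; edgeR adjusted p = 0.0110). In the deletion they were 385 and 438 CPM in young and 623 and 633 CPM in old libraries, a rise of 0.61 (SE 0.15; edgeR adjusted p = 0.0381). The old deletion libraries lay below both old wild-type ones, and the young libraries of the deletion above both of wild type. The difference between the 2 age changes was −0.63 (SE 0.21) and did not pass (edgeR adjusted p = 1.00). SER3 is known to be repressed by transcription of the upstream noncoding RNA SRG1, which overlaps the SER3 coding sequence by 77 bases in R64. Reads in that overlap cannot be assigned with certainty. SER33 footprints were 197 and 143 CPM in young and 134 and 120 CPM in old wild-type libraries, with no call. In the deletion they were 161 and 210 CPM in young and 109 and 107 CPM in old libraries, and fell by 0.78 (SE 0.21; edgeR adjusted p = 0.0451). SER1 (YOR184W), the aminotransferase of the next step, kept 493 to 561 CPM in all 8 footprint libraries, with no call.

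The asparagine synthetases ASN1 (YPR145W) and ASN2 (YGR124W) also diverged. ASN2 footprints were 1309 and 1402 CPM in young and 877 and 856 CPM in old wild-type libraries, a change of −0.65 (SE 0.14; edgeR adjusted p = 0.0608). In the deletion they were 1621 and 1554 CPM in young and 751 and 825 CPM in old libraries, and fell by 1.01 (SE 0.14; edgeR adjusted p = 0.00911). ASN1 mRNA was 404 and 406 CPM in young and 747 and 701 CPM in old wild-type libraries, and 475 and 395 CPM against 941 CPM in the deletion. ASN1 footprints moved less, from 828 and 945 to 1049 and 1051 CPM in wild type, and from 1125 and 1046 to 1117 and 1072 CPM in the deletion, with no call.

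Within pairs of paralogues the ratio per length was free of library scaling. In footprints the SER3 to SER33 ratio was 1.80 to 2.65 in the 4 young libraries and 5.72 to 7.80 in the 4 old ones. The ASN1 to ASN2 ratio was 0.633 to 0.694 in young and 1.20 to 1.49 in old libraries, so that ASN1 passed ASN2 in old cells of both strains. The ratio of LEU4 to LEU9, the isopropylmalate synthases of leucine synthesis, was 2.76 to 5.43 in young and 7.13 to 11.6 in old libraries. The ratio of BAT1 to BAT2, the mitochondrial and cytosolic branched-chain transaminases, was 0.491 to 0.733 in young and 0.285 to 0.450 in old libraries. These 4 ratios did not overlap between ages. In mRNA, SER3 to SER33 was 0.993 to 1.50 in young and 3.34 to 4.44 in old libraries, and ASN1 to ASN2 also kept the ages apart. LEU4 to LEU9 did so narrowly in mRNA, at 1.70 to 4.11 in young and 4.24 to 5.03 in old libraries, and BAT1 to BAT2 overlapped. The ratios of LYS20 to LYS21, the homocitrate synthases, and of ARO3 to ARO4, the first enzymes of the aromatic pathway, overlapped between ages in both assays. Coding sequences of the 6 pairs were 67.5% to 91.9% identical. LYS20 and LYS21 shared 612 of 1296 windows of 28 bases, so that reads may have been split between them. SER3 and SER33 shared 74 windows, ASN1 and ASN2 81 and LEU4 and LEU9 47, and 37 of the 45 genes had no such window elsewhere in the genome.

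**Figure D4:**
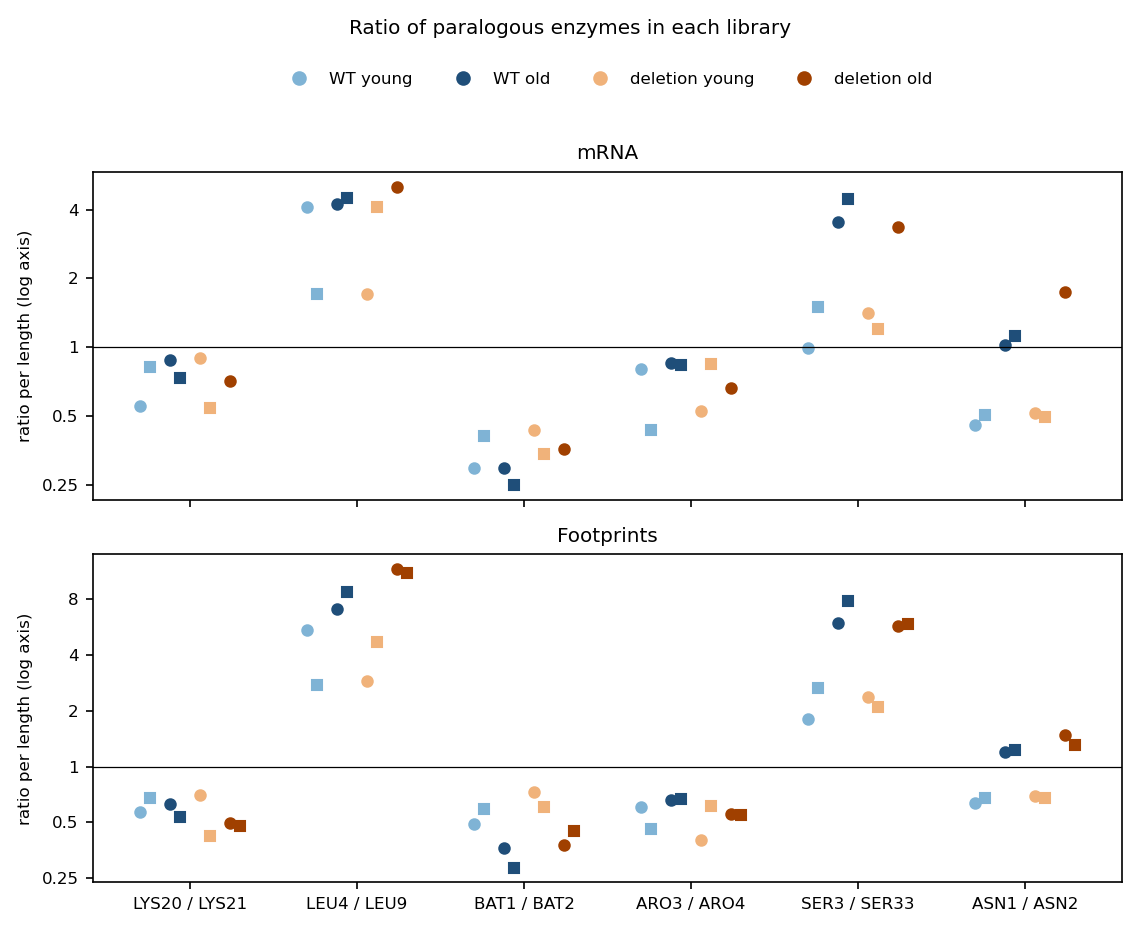
Ratio of 6 pairs of paralogous enzymes, per length, in each library (log axis), for mRNA above and footprints below; colours mark strain and age, circles replicate 1 and squares replicate 2. In footprints the SER3 to SER33 ratio is 1.80 to 2.65 in young and 5.72 to 7.80 in old libraries, and ASN1 to ASN2 crosses 1.

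The branched-chain and lysine genes tended upward in mRNA with few calls. Of the 9 branched-chain genes, 7 were higher with age in wild-type mRNA (median 0.46; 9 with plain totals) and 6 in wild-type footprints (median 0.23; 8 with plain totals). In both, 0 passed the edgeR test, with 3 and 2 higher (10.3% and 12.5% of all genes) and 0 lower (9.6% and 10.5%) at an unadjusted p under 0.05, and DESeq2 called 1, BAT2 in mRNA. In deletion footprints 1 passed, LEU4 (YNL104C), which rose, as did 9.16% of all genes. LEU4 footprints were 458 and 341 CPM in young and 613 and 613 CPM in old wild-type libraries, and 392 and 435 CPM against 746 and 733 CPM in the deletion, where they rose by 0.84 (SE 0.17; edgeR adjusted p = 0.0249). LEU9 (YOR108W) footprints, the lowest wild-type change of the pathway, were 82.4 and 120 CPM in young and 84.0 and 68.1 CPM in old wild-type libraries, which overlapped. BAT2 (YJR148W) had the highest change, with 508 and 546 CPM in young and 722 and 931 CPM in old wild-type footprint libraries, a change of 0.65 (SE 0.18; edgeR adjusted p = 0.0968). ILV5 (YLR355C), acetohydroxyacid reductoisomerase, had the most footprints of the 45 genes per length in all 8 profiling libraries. Its footprints were 1784 and 3315 CPM in young and 3239 and 3352 CPM in old wild-type libraries, and 3141 and 1795 CPM against 4141 and 3916 CPM in the deletion. The young values of ILV5 split as those of ARG4 did, with the replicates in the opposite order.

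Of the 5 lysine genes, 4 were higher with age in wild-type mRNA (median 0.46; 5 with plain totals) and 2 in wild-type footprints (median −0.06; 5 with plain totals). None passed the edgeR test in any age comparison, and DESeq2 called 1, LYS1 in deletion footprints. At an unadjusted p under 0.05, 2 were higher in wild-type mRNA (10.3% of all genes) and 0 lower (9.6%), and 0 were higher (12.5%) or lower (10.5%) in wild-type footprints. In deletion footprints 2 were higher (18.3% of all genes) and 2 lower (18.2%). LYS1 (YIR034C), saccharopine dehydrogenase of the last step, had footprints of 131 and 102 CPM in young and 166 and 166 CPM in old wild-type libraries, a change of 0.51 (SE 0.22; edgeR adjusted p = 0.226). LYS20 (YDL182W) mRNA was 74.1 and 99.2 CPM in young and 149 and 133 CPM in old wild-type libraries, while its footprints were 131 and 144 against 133 and 115 CPM. The mRNA values of LYS20 were separated by age and the footprint values overlapped. LYS2, which encodes another enzyme of the pathway and is not among the 45 genes, had 0 to 2 counts in each of the 15 libraries.

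Histidine, aromatic and threonine genes were mostly level or lower in old cells relative to the middle of all genes, while with plain totals most of each pathway was higher. Of the 5 histidine genes, 2 were higher with age in each of the 3 comparisons (3 with plain totals). In deletion footprints 1 fell, HIS4, where 8.06% of all genes fell. HIS4 (YCL030C) encodes a multifunctional enzyme of histidine synthesis. Its footprints were 1497 and 941 CPM in young and 643 and 539 CPM in old wild-type libraries, a change of −1.04 (SE 0.29; edgeR adjusted p = 0.106). In the deletion they were 1039 and 1600 CPM in young and 538 and 457 CPM in old libraries, and fell by 1.41 (SE 0.30; edgeR adjusted p = 0.0251). HIS4 mRNA was 753 and 459 CPM in young and 343 and 227 CPM in old wild-type libraries, so that old values were lower in both assays. HIS1 (YER055C), which catalyses the first step, had mRNA of 712 and 732 CPM in young and 461 and 340 CPM in old wild-type libraries, with no call. HIS3 (YOR202W) had the highest change of the pathway in wild-type footprints, with 118 and 125 CPM in young and 162 and 152 CPM in old libraries, and a change of 0.37 (SE 0.16; edgeR adjusted p = 0.228).

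Of the 8 aromatic genes, 2 were higher in wild-type footprints with age (median −0.18; 6 with plain totals) and 1 in deletion footprints (median −0.31; 5 with plain totals). In the deletion 2 fell, ARO4 and ARO1, where 8.06% of all genes fell. ARO4 (YBR249C), the tyrosine-inhibited enzyme of the first step, had footprints of 936 and 999 CPM in young and 638 and 565 CPM in old wild-type libraries, a change of −0.69 (SE 0.15; edgeR adjusted p = 0.0640). In the deletion its footprints were 1207 and 1027 CPM in young and 689 and 676 CPM in old libraries, and fell by 0.71 (SE 0.15; edgeR adjusted p = 0.0263). ARO1 (YDR127W), an enzyme of 5 steps of the shikimate pathway, had 861 and 1038 CPM in young and 806 and 705 CPM in old wild-type libraries. In the deletion it went from 1079 and 1022 to 638 and 663 CPM and fell by 0.69 (SE 0.16; edgeR adjusted p = 0.0305). The tryptophan genes moved less. TRP3 (YKL211C) had 233 and 222 CPM in young and 241 and 240 CPM in old wild-type libraries, the highest change of the pathway at 0.08 (SE 0.13).

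The 5 threonine genes were all lower in old wild-type footprints with TMM scaling (median −0.24, range −0.45 to −0.04), and only THR4 stayed lower with plain totals. None passed the edgeR test in any age comparison, and 0 were higher at an unadjusted p under 0.05. At that level 2 were lower in wild-type mRNA (9.6% of all genes), 1 in wild-type footprints (10.5%) and 2 in deletion footprints (18.2%), where DESeq2 called THR4 lower. THR4 (YCR053W), threonine synthase, had footprints of 1030 and 1314 CPM in young and 875 and 838 CPM in old wild-type libraries, and 1266 and 1070 CPM against 788 and 799 CPM in the deletion. HOM6 (YJR139C), homoserine dehydrogenase, had the smallest change, with 625 and 756 CPM in young and 681 and 661 CPM in old wild-type libraries. HOM6 mRNA, by contrast, was 728 and 919 CPM in young and 553 and 531 CPM in old wild-type libraries.

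In the main fits no difference between strains passed the test in these genes. With at most 2 libraries a group, this does not show that the strains were alike. In young mRNA, young footprints, old footprints and the strain difference of the footprint age change, 0 of the 45 genes passed the edgeR test and 0 passed DESeq2 (edgeR called 0% of all genes in each). At an unadjusted p under 0.05 in edgeR, 0 of the 45 differed in young mRNA, where 0.384% of all genes were higher and 1.27% lower. In young footprints 2 were higher in the deletion (0.848% of all) and 0 lower (0.885%), GCN4 by 0.47 (SE 0.19) and ARG56 by 0.49 (SE 0.16). In old footprints ARG1 was higher, at 0.45 (SE 0.18; 2.45% of all genes were higher), and SER3 lower, at −0.46 (SE 0.15; 2.64% were lower). In the difference of the age changes 1 was lower, SER3 (1.81% of all), and 0 higher (1.06%). The edgeR adjusted p was 1.00 for both young genes, 0.952 for ARG1 and 0.854 for SER3. A fit of the 4 old footprint libraries alone called both ARG1, at 0.44 (SE 0.13; edgeR adjusted p = 0.0410), and SER3, at −0.46 (SE 0.10; edgeR adjusted p = 0.00672), where 2.11% of all genes were called higher and 4.04% lower. The median difference between strains over the 45 genes was 0.02 in young mRNA, 0.06 in young footprints and 0.01 in old footprints. Old RNA-seq of the deletion, with 1 library, differed from wild type by at least 1 on the log2 scale in 0 of the 45 genes, where 0.367% of all genes were higher and 0.601% lower by as much.

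Translational efficiency, the change of footprints relative to that of mRNA, was lower with age in wild type for 32 of the 45 genes (45.3% of all genes), with a median of −0.13 where all genes had 0.05. In 22 genes both old lysates had a lower ratio than both young ones (23.9% of all genes) and in 8 a higher one (26.6%). In the fit of all 15 libraries 0 of the 45 passed the edgeR test (0.0661% of all genes were called higher and 0% lower), with 1 higher (4.46% of all) and 4 lower (2.31%) at an unadjusted p under 0.05 and 0 by DESeq2. The same comparison between young cells of the 2 strains called 0 of 45 with edgeR (0% of all genes in each direction). It gave 0 at an unadjusted p under 0.05 in edgeR and 0 with DESeq2. With the lysate as a block it called 0 of 45, where 0.0661% of all genes were called higher and 0% lower. For age in wild type, the lysate block called 6 of 45 lower (3.16% of all genes) and 1 higher (3.64%). LYS20 had ratios of 1.77 and 1.45 in young and 0.893 and 0.863 in old wild-type lysates, and fell by 0.84 with the block (SE 0.18; edgeR adjusted p = 0.00100, against 0.681 without it). LYS21 had ratios of 1.73 and 1.76 against 1.25 and 1.18, and fell by 0.51 (SE 0.16; edgeR adjusted p = 0.0435, against 0.681). Reads of this pair are not separable with certainty, and both moved the same way.

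BAT1 ratios were 1.71 and 1.87 in young and 1.12 and 1.24 in old lysates, and fell by 0.59 with the block (SE 0.16; edgeR adjusted p = 0.0139, against 0.802 without it). ASN1 ratios were 2.05 and 2.33 against 1.40 and 1.50, and fell by 0.57 (SE 0.16; edgeR adjusted p = 0.0146, against 0.678). ILV5 ratios were 3.52 and 3.76 against 2.39 and 2.57, and fell by 0.54 (SE 0.16; edgeR adjusted p = 0.0255, against 0.950). In each of these genes mRNA was higher in both old libraries than in both young ones, and the footprint change was smaller than the mRNA change. HOM6 went the other way, with ratios of 0.859 and 0.823 in young and 1.23 and 1.25 in old lysates, a rise of 0.58 with the block (SE 0.15; edgeR adjusted p = 0.0128, against 0.727). CPA1, which had the largest called change in mRNA, had about the same change in footprints.

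**Figure D5:**
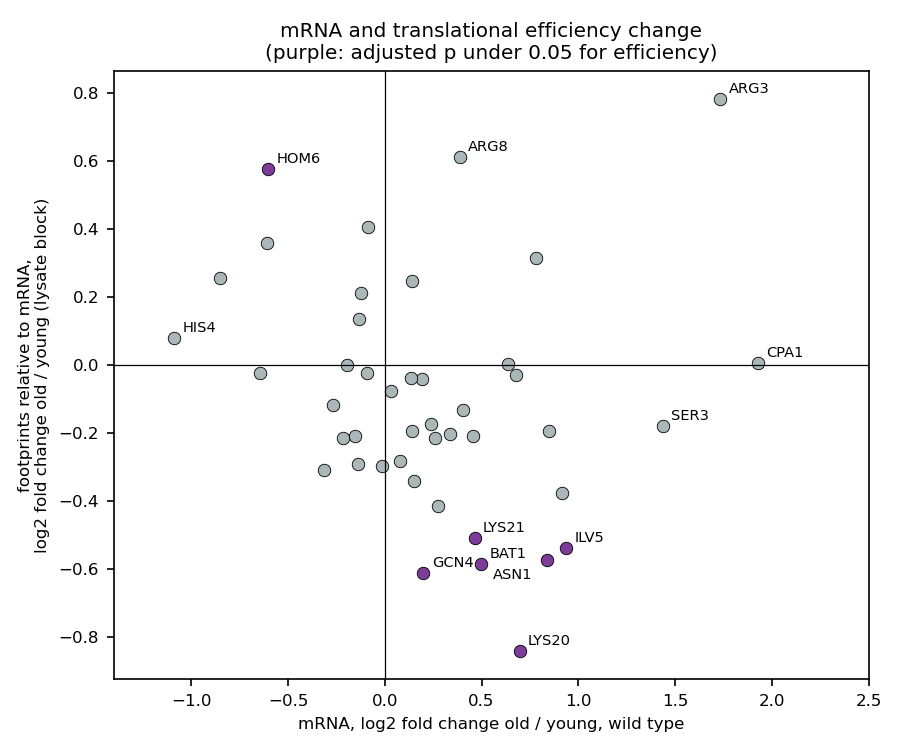
Log2 fold change of wild-type mRNA with age (x axis) against that of footprints relative to mRNA, from the fit with the lysate as a block (y axis), for GCN4 and synthesis genes; purple marks an adjusted p under 0.05 for efficiency. The 2 axes share the mRNA libraries, so no relation is read from the cloud; LYS20, GCN4, BAT1, ASN1, ILV5 and LYS21 lie below 0 and HOM6 above it.

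Other genes of the same pathways were taken from a list of 23, of which 22 passed the filter. In wild type 1 rose and 0 fell in each assay. Of all genes, 0.868% rose and 0.0835% fell in mRNA, and 2.02% rose and 0.961% fell in footprints. DESeq2 also called SHM2 higher and PRO2 lower in footprints. At an unadjusted p under 0.05 in edgeR, 4 were higher and 1 lower in mRNA, where 10.3% and 9.6% of all genes were, and 4 higher and 2 lower in footprints, where 12.5% and 10.5% were. The gene that rose was GDH3, a glutamate dehydrogenase, by 1.72 in mRNA (edgeR adjusted p = 0.0193) and 2.14 in footprints (edgeR adjusted p = 0.0103). PRO2, of proline synthesis, had the lowest change in wild-type footprints, −0.58. In deletion footprints 4 rose (9.16% of all genes), GDH3 (2.5), ARG2 (1.12), TRP1 (0.97) and GDH1 (0.55). PRO2 fell by 0.74, where 8.06% of all genes fell. ARG2 makes acetylglutamate in the first step of the arginine pathway. Of 10 regulators, 0 passed in wild type. By an unadjusted p under 0.05 in edgeR, 2 were higher (10.3% of all genes) and 1 lower (9.6%) in mRNA. By the same rule 1 was higher (12.5%) and 1 lower (10.5%) in footprints. DESeq2 called 1 regulator in wild type, BAS1 in mRNA. In deletion footprints BAS1, an activator of histidine and purine genes, rose by 1.25 (edgeR adjusted p = 0.0452), where 9.16% of all genes rose. GCN1, which Gcn2 needs for its activation, fell by 0.61 (edgeR adjusted p = 0.0382), where 8.06% of all genes fell. These 2 also had the highest (0.66) and the lowest (−0.39) change of the list in wild-type footprints. GCN2 changed by 0.39 in wild-type mRNA, 0.34 in wild-type and 0.15 in deletion footprints. PCL5, a cyclin that Gcn4 induces and that promotes Gcn4 breakdown, changed by 0.46, −0.27 and 0.03, and neither was called. Of the 4 iron-sulfur enzymes, 0 passed in wild type, where footprint changes ran from 0.00 for GLT1 to 0.48 for LYS4. By an unadjusted p under 0.05 in edgeR, 0 were higher (10.3% of all genes) or lower (9.6%) in mRNA. By the same rule 1 was higher (12.5%) and 0 lower (10.5%) in footprints. DESeq2 called 0 of the 4 in wild type. In deletion footprints LEU1, isopropylmalate isomerase, rose by 0.76 (edgeR adjusted p = 0.0227), where 9.16% of all genes rose.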

How the data were processed

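The deposited table of each library lists raw counts and a length for every gene, per the file headers, with no normalisation by the authors. Per the submitters' processing notes, cutadapt 3.4, Bowtie 1.1.2, STAR 2.7.9a and build R64 were used. The counting program and its use of strand are not given in the sources used here, so reads of overlapping genes cannot be assigned with certainty.

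From the counts, CPM were computed with TMM factors, and per-length levels by dividing by the deposited length. Tests used edgeR 4.0.16 in R 4.3.3 (filterByExpr by group, robust quasi-likelihood fit, 1 mean per group). In RNA-seq the fit covered 7 libraries and 5991 genes (biological coefficient of variation 22.7%), the footprint fit 8 libraries and 5308 genes (21.5%), and the fit of translational efficiency 15 libraries and 6050 genes (22.1%). All 45 genes passed the filter in each. P-values were adjusted by Benjamini-Hochberg over all tested genes, and a gene was called under 0.05. SEs were derived from the log2 change and the F statistic of its test. A total of 9 comparisons were tested and 2 with a single library were described. The fit was tested on simulated data.

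The RNA-seq and footprint libraries of a lysate are paired by the labels, and over 5118 genes their replicate differences correlated at 0.763, 0.806 and 0.171. Alternatives were DESeq2 1.42.0, no filter, the compared libraries alone, replicate blocks and leaving out each library. Printed ratios of footprints to mRNA are plain ratios of CPM. For ranking these ratios and for their overlap between young and old lysates, 0.5 CPM was added to both. Motif letters were sought in 400 bases before each start codon. Values in every library are given for GCN4, called genes and, per pathway, the highest and lowest change in wild-type footprints. Other genes are named by range or count. Those singled out beyond that (ARG8, ARG3 mRNA, HIS1, SER1, LYS2 and ILV5 footprints) were chosen after their values were seen. The ratios of ILV5, BAT1 and LYS21 are given because these genes were called with the lysate as a block, outside the main fits. The 45 genes and the other lists were chosen with earlier results of these data known. The values of 1 arginine gene are not reported here, and it remains in the counts and medians.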

Additional observations from a re-analysis of the deposited data

How the results depend on the processing

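With DESeq2 the genes called of 45 went from 2 to 5 in wild-type mRNA with age and from 5 to 8 in wild-type footprints. With only the compared libraries they were 1 in wild-type footprints, 2 in deletion footprints (13 in the main result) and 2 in old footprints between strains (0). The replicate number as a block gave 0, 1 and 5 in the 3 age comparisons, and the lysate block 7 for wild-type efficiency with age. The numbers do not pair libraries across groups by the labels; the replicate differences of the strains correlated at −0.757 in young mRNA, −0.856 in young footprints and −0.0202 in old footprints. A crossed block, chosen after seeing the data, gave 6 in wild-type mRNA and 3 in wild-type footprints. Without 1 library the calls ranged from 0 to 0 in wild-type mRNA, 0 to 2 in wild-type footprints and 0 to 13 in deletion footprints. Single log2 changes were followed only for GCN4, the genes called in a comparison and the highest and lowest of each pathway in wild-type footprints. Among these, GCN4 turned sign without 1 library between strains in young mRNA (from −0.0749 to 0.20) and old footprints (from −0.34 to 0.0283). ARG4 (−0.44 to 0.74) and HOM6 (−0.17 to 0.10) did so with age in wild-type footprints. The cause was not tested. The other 68 counts of called genes and all 90 medians of the 45 genes stayed within their limits. Counts over all genes moved more: 57 genes were called in wild-type mRNA and 260 by DESeq2, 0 with the replicate block and 235 with the crossed one. In wild-type footprints 158 genes became 316 with DESeq2 and 46 with the block, and in deletion footprints 914 became 252 with the block. Between strains in old footprints 0 genes became 22 with DESeq2 and 323 with the old libraries alone. Efficiency calls went from 4 to 411 with the lysate block. With 2 libraries a group, small changes of scarce genes are poorly resolved. The wild-type footprint change of ARG3, a scarce gene with a large change, ranged from 2.02 to 3.29 without 1 library.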
